A study of Mus musculus with 2 samples.

Results

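The numbered zinc finger protein genes of the mouse are those whose symbol is Zfp followed by 3 digits. Members were taken by symbol from the GENCODE M21 annotation, on condition that at least 1 transcript is annotated protein_coding. The rule gave 315 genes of 55536 annotated genes, or of 21853 protein-coding genes of the nuclear genome, and 9 further matching symbols had no such transcript. No measured value enters this rule, which was set with earlier results of these data known.

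The samples were 2 biological replicates of a single condition: nucleoplasmic RNA of primary bone-marrow-derived macrophages of C57BL/6J mice, treated with Lipid A, the toll-like receptor 4 agonist of bacterial lipopolysaccharide, at 100 ng/ml for 60 min. Total RNA depleted of ribosomal RNA was sequenced, from 1 µg in replicate 1 and 500 ng in replicate 2. Untreated macrophages and other fractions were not analysed here, so no value below is a response to Lipid A or a comparison of compartments. Both libraries carry the same donor label, so the spread between them may be technical and smaller than that between animals.

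A C2H2 zinc finger is a small fold in which a pair of cysteines and a pair of histidines hold a zinc ion, and rows of such fingers read DNA sequence. Many of these proteins also carry a KRAB box, which recruits Trim28 and through it the histone H3 lysine 9 methyltransferase Setdb1, heterochromatin protein 1 and the NuRD complex. KRAB zinc finger proteins are known for silencing retroelements and imprinted regions, and their genes arose by duplication and often lie in clusters of near-identical copies. Other genes with such symbols encode RNA-binding, ribosome-associated or developmental proteins with few fingers.

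The coding sequence of 1 finger is shown for members whose values below depend on how alike the copies are, and for Zfp263 and Zfp207, which are among the 3 members with the most RNA. Each is the first finger found in the GENCODE M21 coding sequence, 5′ to 3′, with the codons of the 4 zinc-binding residues in capitals.
Zfp966: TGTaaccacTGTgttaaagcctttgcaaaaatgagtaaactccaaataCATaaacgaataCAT
Zfp967: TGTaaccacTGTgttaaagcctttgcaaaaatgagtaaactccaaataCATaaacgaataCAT
Zfp969: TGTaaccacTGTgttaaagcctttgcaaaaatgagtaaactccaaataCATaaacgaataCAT
Zfp973: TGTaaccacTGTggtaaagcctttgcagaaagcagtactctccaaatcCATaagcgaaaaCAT
Zfp263: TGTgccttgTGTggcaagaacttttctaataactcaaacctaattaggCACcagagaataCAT
Zfp207: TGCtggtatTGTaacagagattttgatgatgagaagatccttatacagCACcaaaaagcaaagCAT
The first 3 lines are the same sequence, from 3 genes on chromosome 2.

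Expected counts summed to 21256531 in the gene table of replicate 1 and to 15643649 in that of replicate 2. Members had 113628 and 77340 of them. All 10 macrophage markers examined were expressed, the lowest at 8.85 TPM in replicate 1 and 9.99 in replicate 2. TPM is the length-corrected level that the authors deposited, scaled to the same sum in each library. The 3 T cell markers were listed at 0. Summed TPM was 0.12 and 0.11 for 3 B cell markers, 1.88 and 1.33 for 4 neutrophil markers, 0.59 and 0.16 for 3 erythroid markers, and 0.11 and 0.24 for 3 fibroblast markers. In bulk RNA, fewer cells of a type and less RNA per cell cannot be told apart.

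Members were detected about as often as other protein-coding genes, and few were high. A member is called detected here where each library has 1 TPM or more, which held for 136 of 315 members, or 43.2%, against 39.4% of protein-coding genes. At 10 TPM or more in each library were 23 members, or 7.30%, against 14.5%. At the other end, 44 members had under 3 counts in each library, against 41.2% of protein-coding genes, and 31 of these had 0 counts in both. A count of 0 allows a level of up to 0.142 CPM (the count scaled to library depth) in replicate 1 and 0.192 CPM in replicate 2. This bound covers counting error only. Some members at 0 counts, Zfp459 and Zfp990 among them, had counts in another quantification of the same reads, as given below. The median of log2(TPM + 1) was 0.88 ± 0.06 (SD, n = 2) over members and 0.33 ± 0.05 over protein-coding genes. Among detected genes the order was the other way round, with medians of 2.33 ± 0.16 for members and 3.04 ± 0.24 for protein-coding genes.

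**Figure D1:**
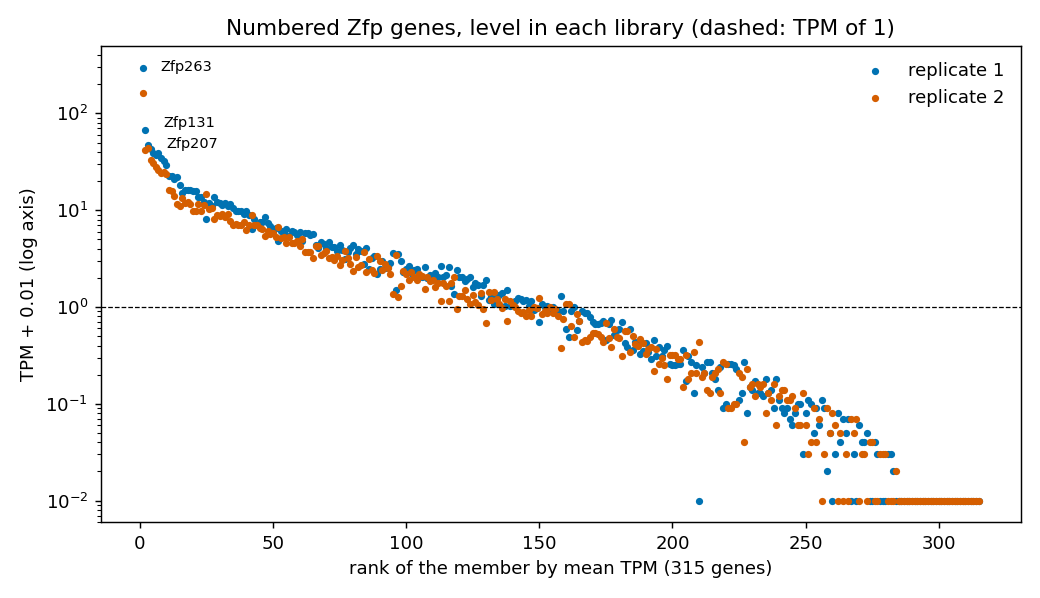
TPM plus 0.01 on a log axis for each of the 315 members, ordered by mean TPM, with replicate 1 in blue, replicate 2 in orange and a dashed line at a TPM of 1. Zfp263 stands alone at the top at 297 and 164, and 31 members with 0 counts in both libraries lie on the lower edge.

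Zfp263 was the highest member in both libraries. This gene of a SCAN-domain zinc finger protein (chr16:3744093-3750790, mm10, plus strand) was at 297 TPM in replicate 1 and 164 TPM in replicate 2, from 21477 and 10362 expected counts. This was 4.46 times the level of Zfp131, the next member in replicate 1, and 3.71 times that of Zfp207, the next in replicate 2. Zfp263 held 20.0% and 15.1% of all member TPM. No other annotated gene overlapped it. Members together held 0.740 ± 0.0126% (SD, n = 2) of the expected counts of nuclear protein-coding genes, and 0.620 ± 0.0182% without Zfp263.

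Zfp263 RNA was divided over several annotated transcripts, and their shares differed between the libraries. The protein_coding transcript Zfp263-201 held 31.5% of the gene's TPM in replicate 1 and 15.5% in replicate 2, and the shorter protein_coding transcript Zfp263-207 held 36.5% and 42.7%. A retained_intron transcript, Zfp263-203, held 24.1% and 21.9%. The processed_transcript Zfp263-204, which has no annotated coding sequence, held 3.28% in replicate 1 and 17.3% in replicate 2. It had 472 and 1294 expected counts, although the count of the whole gene was lower in replicate 2. The second transcript table, another quantification of the same reads, gave Zfp263-204 3.04% and 16.9%.

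Below Zfp263 the levels formed a gradual slope. Zfp131, a BTB-domain transcription factor (chr13:119765187-119790889), was at 66.7 TPM and 42.1 TPM. An antisense gene, Gm41077, overlaps it, and whether the counting used strand is not given in the sources used here. Zfp207, a spindle and splicing protein also called BuGZ (chr11:80383279-80405733), had 47.7 and 44.1. Zfp638, a nuclear RNA-binding protein (chr6:83867109-83989550), had 43.1 and 33.1. The next 6 were Zfp800 at 39.4 and 30.4, Zfp655 at 37.1 and 27.9, Zfp384 at 38.8 and 25.9, Zfp407 at 34.9 and 24.0, Zfp703 at 32.4 and 24.6, and Zfp445 at 29.6 and 23.4. Ranges over the libraries did not overlap between Zfp263 and Zfp131 or between Zfp207 and Zfp638, and overlapped for the other neighbours in this order. The 10 highest members held 44.9% of member TPM in replicate 1 and 40.5% in replicate 2. Nearest to a mean TPM of 1 lay Zfp329, Zfp568 and Zfp202 above it, and Zfp764, Zfp994 and Zfp944 below it, each between 0.79 and 1.24 in every library.

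The members were next grouped by known role, in lists drawn up by hand with earlier results of these data known, so their counts are descriptions. Of 10 genes that act on RNA and ribosomes 9 were detected, against 43.2% of all members and 39.4% of protein-coding genes, and the median was 10.4 TPM in replicate 1 and 8.08 in replicate 2. After Zfp207 and Zfp638 came Zfp622, a factor of large ribosomal subunit maturation, at 18.2 and 10.9. Zfp106, an RNA-binding protein, had 11.9 and 10.2. Zfp326, a subunit of the DBIRD complex that links transcript elongation to splicing, had 11.0 and 9.20. Zfp598, the ubiquitin ligase that marks collided ribosomes, had 9.81 and 6.95, and Zfp318, known for the alternative processing of immunoglobulin transcripts in B cells, had 7.57 and 6.37. The splicing factor Zfp830 had 3.94 and 2.60, and the double-stranded RNA-binding protein Zfp346 had 3.60 and 1.35. The lowest was Zfp593, a large-subunit biogenesis factor, at 0.85 and 0.44.

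Of 18 chromatin and transcription regulators, 16 were detected, again against 43.2% of all members, with medians of 5.97 and 5.33 TPM. Zfp131 and Zfp384 led the list. Zfp410, known for activating Chd4, had 15.02 and 13.5, and Chd4 itself had 111 and 76.7. Zfp644, a partner of the methyltransferases Ehmt1 and Ehmt2, had 16.3 and 11.96. Zfp451, a SUMO ligase, had 11.1 and 10.7. Zfp217, a partner of the demethylase Kdm1a, had 11.4 and 9.07, Zfp281 had 9.12 and 7.46, and the promoter-binding factor Zfp143 had 3.36 and 2.21. The remaining members at or above 1 were Zfp335, Zfp746, Zfp148, Zfp687, Zfp592, Zfp219, Zfp609 and Zfp608, between 1.21 and 8.40. The exceptions were Zfp827 at 0.70 and 0.71 and Zfp462 at 0.17 and 0.05.

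A list of 7 members was drawn up for the silencing of repeats and imprints, of which 5 were detected, against the same 43.2%. Zfp263 was on it, although its part in such silencing is less certain than that of the others named here. Zfp445, which maintains imprints with Zfp57, had 29.6 and 23.4 and was the highest member with the KRAB A box pattern described below. Zfp932, which binds endogenous retroviruses, had 9.81 and 6.26. Zfp809, which silences murine leukaemia virus, had 3.79 and 2.71, and Zfp266 had 1.02 and 1.20. Zfp568, a repressor of a placental Igf2 promoter, had 1.21 and 0.85, and Zfp708 was at 0.04 and 0.

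A hand-made list of 23 genes held the corepressors that KRAB proteins recruit. Of these 22 were detected, against 39.4% of protein-coding genes, with medians of 9.56 and 6.29 TPM. The adaptor Trim28 had 11.9 and 11.7, the methyltransferase Setdb1 had 5.22 and 4.12, and the NuRD deacetylase Hdac1 had 28.4 and 28.0. The heterochromatin proteins Cbx1, Cbx3 and Cbx5 had 5.84 and 4.28, 4.19 and 3.64, and 3.91 and 3.71. Uhrf1, which guides maintenance DNA methylation, was the lowest at 1.31 and 0.90.

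Genes known for lineages other than the macrophage were mostly low. Of 11 such members 2 were detected, against 43.2% of all members, and 2 had under 3 counts in each library. The 2 detected were Zfp703, a Groucho-binding corepressor, at 32.4 and 24.6, and Zfp516, known from brown fat, at 21.1 and 14.02. Zfp467 was at 1.91 and 0.68. The other 8 (Zfp750, Zfp296, Zfp366, Zfp503, Zfp541, Zfp521, Zfp423 and Zfp536) lay at 0.22 or below in each library. Among them were the epidermal regulator Zfp750 at 0.22 and 0.09 and the dendritic cell corepressor Zfp366 at 0.05 and 0.11. The preadipocyte factor Zfp423 and the neuronal repressor Zfp536 had 0 counts in both.

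Fingers and KRAB boxes were looked for in proteins translated from the annotation. A coding sequence could be translated for 313 members. At least 1 C2H2 finger was found in 294 of them, or 93.9%, against 3.35% of protein-coding genes, and the median was 10 fingers. The most, 33, were found in Zfp462, at a TPM of 0.17 and 0.05, and Zfp619, at 2.04 and 2.06. The KRAB A box pattern was found in 127, or 40.6%, against 0.881%. A box that departs from this fixed pattern was not counted, so members without the pattern may still carry a KRAB box.

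Members with the KRAB pattern were lower than those without it. Of 127 with the pattern, 38 were detected, or 29.9%, and their median TPM was 0.42 in replicate 1 and 0.38 in replicate 2. Of 186 without it, 98 were, or 52.7%, with medians of 1.66 and 1.20. The highest with the pattern after Zfp445 were Zfp871 at 22.7 and 15.98 and Zfp991 at 22.7 and 15.6. The groups differed in other ways too: 86 of the 127 and 44 of the 186 lay in the genomic runs described below, and the median number of CpG in the promoter window was 11 and 16. The part of these features in the difference was not tested. By number of fingers, 10 of 19 members with none found were detected, 30 of 44 with 1 to 4, 38 of 81 with 5 to 9, 33 of 111 with 10 to 14, and 25 of 58 with 15 or more.

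**Figure D2:**
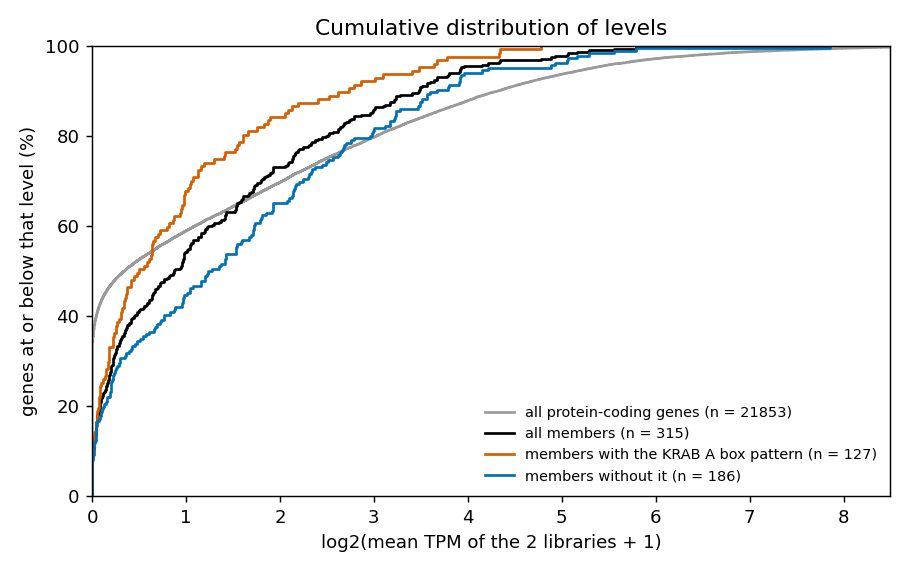
Cumulative percentage of genes (vertical axis) at or below each level of log2(mean TPM + 1) (horizontal axis) for all 21853 protein-coding genes in grey, 315 members in black, 127 members with the KRAB A box pattern in orange and 186 without it in blue. The grey curve starts highest, since 41.2% of protein-coding genes had under 3 counts, and the orange curve lies above the blue one.

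Other zinc finger families in these libraries ranged widely. Detected were 29 of 41 Zbtb genes, 8 of 30 Zscan and Zkscan genes, 6 of 17 Klf genes, 12 of 50 Zfp genes numbered with 1 or 2 digits, and 12 of 26 with 3 digits and a letter.

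Promoters of members with more RNA held more CpG. RefSeq promoter windows, from 250 bases before to 50 after the start (GRCm38.p6), matched 259 members. The median window held 17 CpG for detected members, 6.5 for those with under 3 counts in each, and 11.5 for those between. For protein-coding genes the medians were 22 when detected and 4 under 3 counts. The bases before the annotated gene start are shown for the highest member and for Zfp987, a KRAB member with 1 count in replicate 1 and 0 in replicate 2, both on the plus strand with CpG in capitals. They are chr16:3743849-3744092, with 14 CpG in 244 bases, and chr4:146097062-146097297, with 1 in 236.
Zfp263: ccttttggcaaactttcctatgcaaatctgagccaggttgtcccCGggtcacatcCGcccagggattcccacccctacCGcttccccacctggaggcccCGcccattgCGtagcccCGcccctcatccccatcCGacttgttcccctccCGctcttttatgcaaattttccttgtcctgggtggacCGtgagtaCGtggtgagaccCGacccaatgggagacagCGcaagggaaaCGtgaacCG
Zfp987: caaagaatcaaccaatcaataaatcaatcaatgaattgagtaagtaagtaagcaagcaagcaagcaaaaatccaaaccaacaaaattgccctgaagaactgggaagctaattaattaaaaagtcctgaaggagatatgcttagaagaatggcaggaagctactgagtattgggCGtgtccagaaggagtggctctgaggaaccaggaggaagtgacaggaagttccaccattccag

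Members are spread over 20 chromosomes, with 75 on chromosome 7, and 132 of them lay in 20 runs of at least 4 members whose neighbours were within 200 kb. In the runs 43 of 132, or 32.6%, were detected, with a median mean TPM of 0.51. Outside them 93 of 183 were, or 50.8%, with a median of 1.31. Levels within a run were uneven. In the run at chr17:32765496-33110705, Zfp871 had 22.7 and 15.98 while the other 7 lay between 0.09 and 1.06. In the run at chr4:146971976-147848366, Zfp991 had 22.7 and 15.6 while 5 of 10 had under 3 counts in each library. All 5 members of the neighbouring run at chr4:145510759-146198755 had under 3 counts in each library. Zfp979, Zfp985 and Zfp989 of the Zfp991 run and Zfp990 of its neighbour were higher in the second transcript table, as given below.

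The largest run, 15 members at chr13:67038596-67827002, had 4 detected members, from Zfp429 at 3.77 and 3.38 down to Zfp459 at 0 in both libraries. The next, 14 members at chr17:21383748-22456689, all with the KRAB pattern, also had 4, from Zfp948 at 6.09 and 5.18 down to Zfp820 at 0.02 and 0.04. On chromosome 7 the runs were led by Zfp787 at 15.96 and 9.90, Zfp865 at 12.02 and 8.81, and Zfp382 at 7.08 and 7.02. Lower levels were seen in the run of 7 members at chr7:24081924-24262445, where Zfp180 led with 2.25 and 1.59, and in that of 4 at chr7:42473386-42692742, where Zfp976 led with 0.78 and 0.48. The run with the highest median, 4.44, was that of 5 members at chr8:69610857-69791178. In it Zfp869 had 9.69 and 7.18 and Zfp964 had 0.07 and 0. Zfp180, Zfp459 and Zfp964 were each higher in the second transcript table, as given below. There Zfp180 had 22.1 and 31.3 TPM, so the low level of its run holds for the gene table only. On chromosome 9, Zfp653 had 6.14 and 4.52 in 1 run and Zfp426 had 2.59 and 2.54 in the other, beside Zfp872 at 0.01 and 0.08 and Zfp846 at 0.24 and 0.20.

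**Figure D3:**
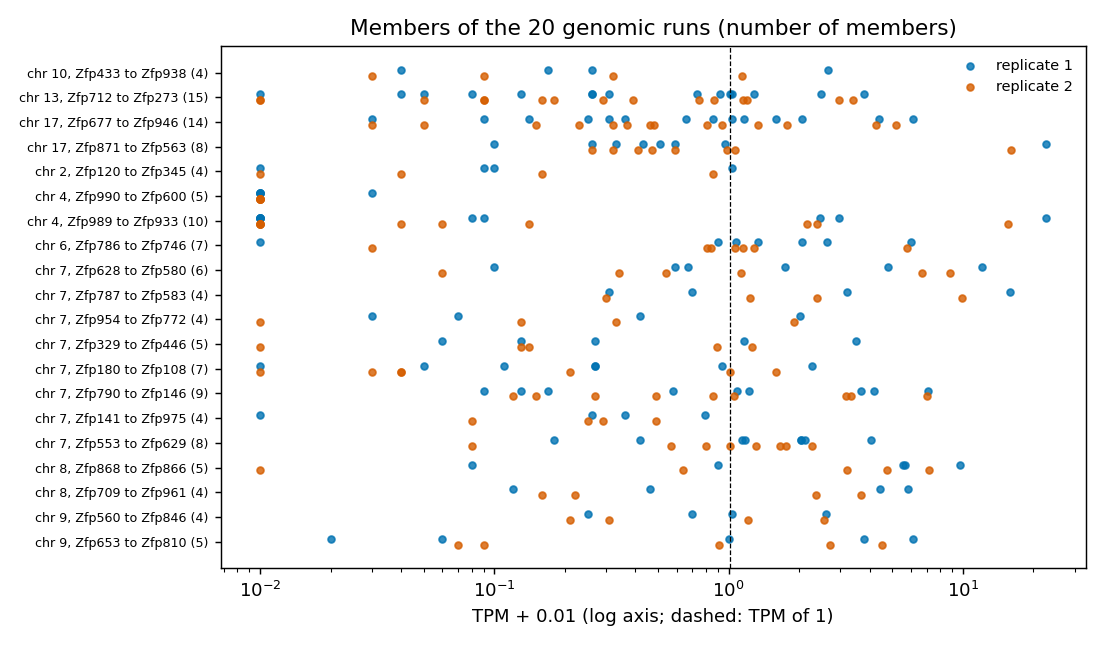
TPM plus 0.01 on a log axis (horizontal) of each member of the 20 genomic runs, 1 run per row with its chromosome, its first and last member and its number of members, with replicate 1 in blue and replicate 2 in orange. Most rows hold members on both sides of the dashed line at a TPM of 1, while the 5 members from Zfp990 to Zfp600 on chromosome 4 stay near the left edge.

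Near-identical copies limit what these levels mean. For 21 members at least 75% of the 31-base words of their transcripts also occurred in another gene. Of these 6 were detected, against 43.2% of all members and 39.4% of protein-coding genes. A further 11 had under 3 counts in each library, against 44 of all 315 members and 41.2% of protein-coding genes. How the reads were divided among the copies is not known. Zfp967 (chr2:176521056-176532479) and Zfp969 (chr2:175692223-175703646) shared 100% of their words with other genes and were listed at 0 counts in both libraries. Their coding sequences, 1458 bases each, had 0 mismatches. Zfp966, whose first finger is the same sequence, had 3.49 and 3.24, and Zfp973, whose finger differs, had 3.10 and 3.74. Zfp968 had 1.35 and 2.02. Zfp991 shared 88.0% of its words, so its place among the highest members is uncertain. The median shared percentage was 3.95% for members with the KRAB pattern and 0.794% for those without.

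Many members had reads on transcripts that are not annotated protein_coding, which in nuclear RNA include partly spliced forms. The median share of TPM on such transcripts was 22.7% over the 136 detected members and 26.3% over detected protein-coding genes. It exceeded 50% in 24 members, or 17.6%, against 22.8%. Retained_intron transcripts alone exceeded 50% in 12, or 8.82%, against 11.0%. The median retained_intron share was 2.40% for members and 12.8% for protein-coding genes. At a TPM of at least 5 the highest shares of transcripts not annotated protein_coding were in Zfp326, with 96.3% in replicate 1 and 92.8% in replicate 2, and Zfp945, with 89.6% and 95.3%. Zfp865 had 88.9% and 90.7%, Zfp410 had 87.9% and 75.3%, and Zfp644 had 77.5% and 70.5%. Zfp800, Zfp655 and Zfp703 had 0% in both. Every annotated transcript of Zfp655 is protein_coding, so its 0% was fixed by the annotation. Any gene with no other kind of transcript annotated has a share of 0%, and such genes enter the medians above. How many there are among members and protein-coding genes was not counted.

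For members with enough counts the libraries were close. Among members with 1 TPM or more in each library, TPM was lower in replicate 2 for most. The median log2 ratio of TPM was -0.34 over these members and -0.42 over protein-coding genes at that level. After TMM normalisation the median log2 ratio of replicate 2 over replicate 1 was 0.08 over 156 members with a mean count of at least 50, and 0.00 over all 10088 genes at that count. The ratio was above 0 in 91 of the 156, and the share of all genes above 0 is not given here. A member beyond 2-fold was found once, 0.641% of the 156, against 1.18% of all genes. In the direction of replicate 2 the share of all genes was 0.506%, and in that of replicate 1, where 0 members lay, it was 0.674%. The member was Zfp931, with 54.1 expected counts in replicate 1 and 79 in replicate 2, and a log2 ratio of 1.04 (95% interval from counting error alone 0.53 to 1.57). Among 80 members with a mean count of at least 200, Zfp945 had the largest ratio, 0.86 (0.71 to 1.02), with 602 and 777 counts. Zfp263 had the smallest, -0.56 (-0.59 to -0.52), followed by Zfp513 at -0.41 (-0.56 to -0.26). The next largest were Zfp395, Zfp319, Zfp260 and Zfp619, between 0.43 and 0.57, and the next smallest were Zfp335, Zfp236 and Zfp219, between -0.22 and -0.19. These members were picked as the extremes of the 80, and the intervals leave out the spread between libraries, so they are given as a description. The deposited standard deviation of the count exceeded 5% of it in 7 of 183 members with at least 20 counts in each library, or 3.83%, against 2.48% of all such genes.

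**Figure D4:**
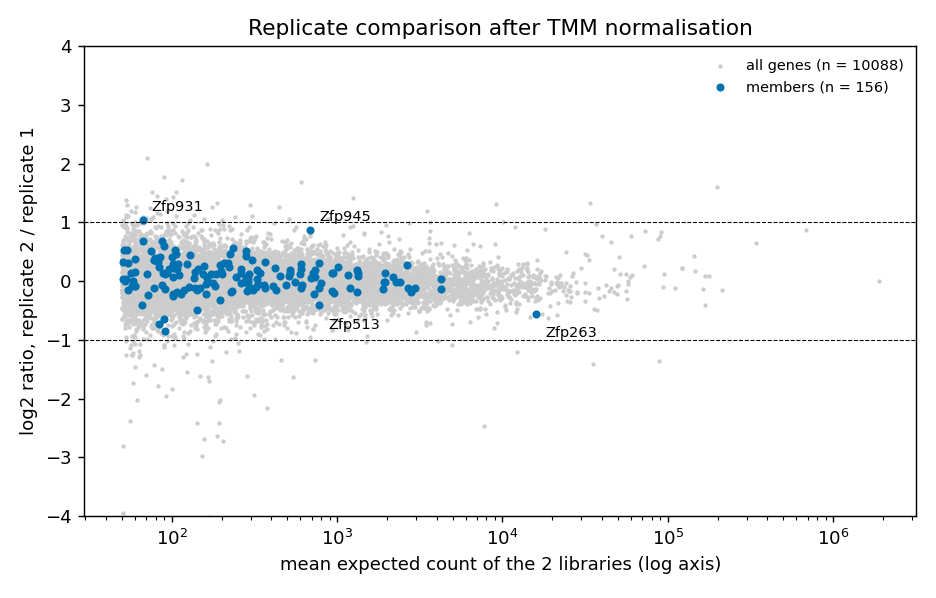
Log2 ratio of replicate 2 over replicate 1 after TMM normalisation (vertical axis) against mean expected count (log axis) for 10088 genes in grey and 156 members in blue, with dashed lines at 2-fold. Zfp931 at 1.04 is the member outside the lines, and Zfp263 at -0.56 is the blue point with the highest count.

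The second transcript table placed some members far above the gene table. TPM was rescaled in both tables over the nuclear protein-coding genes, since the tables spread their TPM over different entries. Of the 136 members, 13 were more than 2-fold higher in the second table in both libraries, or 9.56%, against 4.41% of protein-coding genes, and 0 were lower, against 0.174%, whereas with TPM as deposited 3 were higher and 15 lower. Zfp180 differed most, with rescaled TPM of 8.86 and 8.47 in the gene table and 178 and 228 in the second table. There 96.3% and 97.5% of its TPM lay on Zfp180-203, a nonsense_mediated_decay transcript of 827 bases. For Zfp398 and Zfp809 the larger part lay on a retained_intron transcript, 87.6% and 86.8% for Zfp398-203, and 80.1% and 80.3% for Zfp809-202. Zfp991 had 65.3% and 75.9% on Zfp991-202, a transcript of 234 bases that the first transcript table lists at 0. Where each library had 5 TPM or more, Zfp369 and Zfp991 were the 2 of 54 members beyond 2-fold. The share of protein-coding genes is not given at this level. Zfp369 had rescaled TPM of 27.0 and 30.2 in the gene table and 71.5 and 72.4 in the second. Zfp263 had the highest rescaled TPM in both tables.

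A further 9 members had a rescaled TPM under 1 in the gene table and of at least 5 in the second table, in both libraries. The share of all protein-coding genes that meet this rule was not counted, so the 9 are given as a description. Zfp990 had 0 counts in both libraries in the gene table and 129 and 94.6 estimated counts in the second, 99.7% and 99.4% of its TPM lying on a processed_transcript. Zfp488 had 3 and 2 counts against 921 and 520, and Zfp979 had 4 and 2 against 564 and 506. Zfp459 had 0 and 0 against 358 and 216, and Zfp964 had 6 and 0 against 488 and 315. The others were Zfp989, Zfp985, Zfp418 and Zfp791. For these genes a value near 0 in the gene table does not hold in the other quantification.

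**Figure D5:**
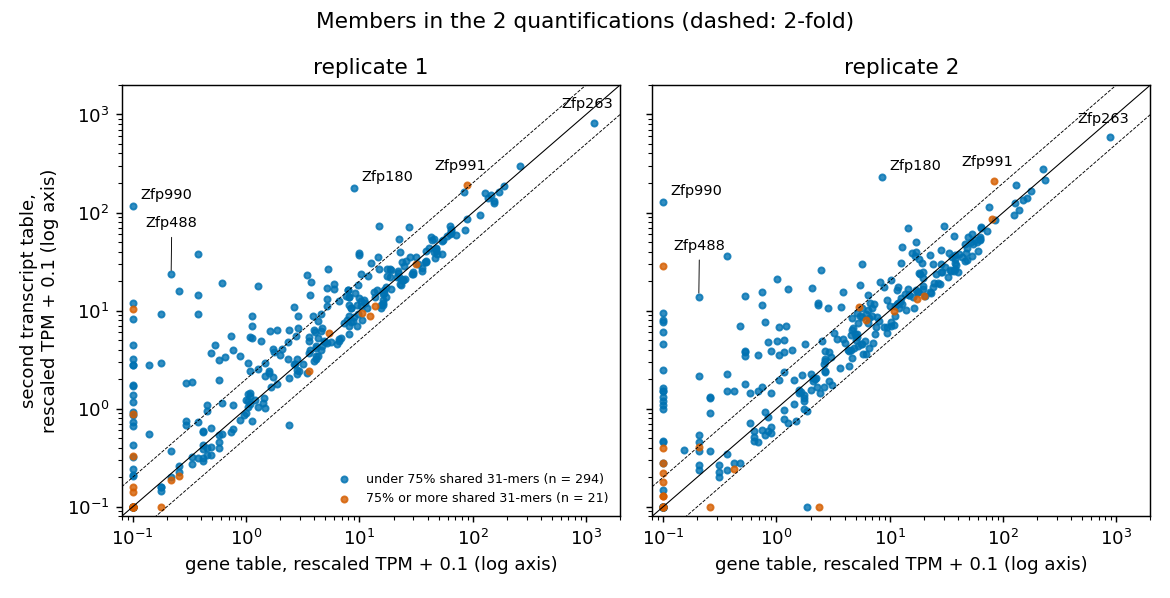
Rescaled TPM plus 0.1 of each member in the gene table (horizontal log axis) and in the second transcript table (vertical log axis), replicate 1 at left and replicate 2 at right, with equality as a solid line and 2-fold as dashed lines. Most blue points (294 members with under 75% shared 31-base words) and orange points (21 with 75% or more) lie near the solid line, while Zfp180 and Zfp990 stand far above it in both panels.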

How the data were processed

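Nucleoplasmic RNA was measured in 2 libraries of 1 group. Each has a gene table and 2 transcript tables, made on mm10 with GENCODE M21 per the file headers and the submitters' processing notes. Not given in the sources used here were an aligner, quantifiers, versions or a strand setting. The expected counts (estimated, not always whole, not normalised) and the TPM of the gene table and the first transcript table are as the authors deposited them, as are the estimated counts and TPM of the second transcript table, summed per gene here. The deposited standard deviation of each count was used as a score of its certainty.

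Members, role lists and comparisons were chosen with earlier results of these data known. With 1 group no test between groups exists, and values are described by library, as mean ± SD (n = 2) or as counts beside all genes. Expected counts were rounded for normalisation with TMM in edgeR 4.0.16 or, as an alternative, size factors of DESeq2 1.42.0 (R 4.3.3), with 0.5 added for ratios. Rows naming no mouse gene were left out. The ratio and normalisation steps were tested on simulated data. Intervals are exact 95% binomial ones; with no molecular identifiers a read is not a separate molecule, so intervals and the floor of 3 counts cover counting error only.

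Coding sequences of GENCODE M21 were translated with Python 3.11.15. A finger is Cys, 2 residues, Cys, 12 residues, His, 3 to 5 residues, His. The KRAB A box pattern is Phe or Leu, any residue, Asp, Val, 3 residues, Phe, 3 residues, Glu, Trp. Members overlapping another annotated gene numbered 137, 109 of them on the opposite strand, and their values are uncertain.

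Members named in the text are the 10 highest by mean TPM, the 3 on each side of a mean TPM of 1, the 5 largest and 5 smallest ratios between libraries at a mean count of at least 200, the 5 highest shares of TPM on transcripts not annotated protein_coding and the 5 largest differences between tables at a TPM of at least 5, the role lists, the extremes of the genomic runs, and the most fingers. Others were chosen after their values were seen: Zfp931, Zfp180, Zfp398, Zfp966 to Zfp969, Zfp973, Zfp488, Zfp979, Zfp985, Zfp418, Zfp791.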

Additional observations from a re-analysis of the deposited data

How the results depend on the processing

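The number of members with 1 TPM or more in each library, 136, was 137 in the second transcript table, 166 and 101 at thresholds of 0.5 and 2, 198 after rescaling, and 140 to 151 when either library was left out. The share of protein-coding genes is not given for these alternatives. The comparison with protein-coding genes therefore holds for 1 TPM in the gene table only. The median log2(TPM + 1) was 2.28 after rescaling, -0.091 with a pseudocount of 0.1, 2.33 over members at a TPM of at least 1, and 0.84 to 0.92 leaving out either library. The median ratio between libraries stayed within 0.02 to 0.11 under 5 alternatives. Members beyond 2-fold between libraries numbered 6 of 191 with a mean count of 20 or more, and 0 of 80 with 200 or more. In the second transcript table they numbered 3 of 214, which were other genes than Zfp931. No share of all genes beyond 2-fold is given under these settings, so the counts are a description. The member share of counts was 0.785% in the second transcript table, 0.731 to 0.749% leaving out either library, and 0.620% for members other than Zfp263, an alternative chosen after seeing the data. The median share of TPM on transcripts not annotated protein_coding was 37.3% in the second transcript table (38.6% for protein-coding genes), 27.9% at a TPM of at least 5 (30.4%), and 21.1 to 23.2% leaving out either library. Members beyond 2-fold between tables numbered 2 of 54 at a TPM of at least 5. With TPM as deposited they numbered 18, of which 15 were lower in the second table and 3 higher. The direction of that count therefore rests on the rescaling. The share of protein-coding genes is not given for these 2 settings. Apart from the change of scale that rescaling brings, the cause of these changes was not tested. Single-member TPM moved by more than 1 SD in 28 of 34 named members in the second table and in 34 after rescaling. Rescaling multiplies every TPM of a library by the same factor, so these 34 reflect the change of scale. The second-table values are TPM as deposited, which that table spreads over different entries. No paired analysis was possible because there is 1 group and no test. Depth limits members under 3 counts, and copies sharing most of their sequence cannot be told apart.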
